A study of Mus musculus with 4 samples.

Results

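The comparison set 2 kinds of tumour-associated macrophage, named TAM_C1q and TAM_Spp1 by the authors, against each other inside the same resistant melanomas. Members were the cells with either name in the samples RTT, RTT_ROSA26 and RTT_PTGS12KO, and their counts of unique molecular identifiers (UMIs) were summed per sample and type. This gave 12039 of the 33368 cells of the series, 7215 TAM_C1q and 4824 TAM_Spp1, and 6 sums that pair the types within each of the 3 samples. All 32285 genes of the matrix were compared, of which 6678 had a mean of at least 10 CPM (UMIs per 1e6 UMIs of the sum) over the 6 sums. The names came from clusters of these same cells and genes, so every gap below is a description of 2 groups made to differ, and no p-value is given.

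Every tumour grew from the mouse melanoma line YUMM1.7OVA, which carries mutant Braf, lacks Cdkn2a and expresses ovalbumin, in Rag2-/- mice, which have no T or B cells of their own. RTT came from the line 2B12, kept in dabrafenib until resistant to this BRAF inhibitor, RTT_ROSA26 from resistant cells with a control guide against ROSA26, and RTT_PTGS12KO from resistant cells whose Ptgs1 and Ptgs2, the cyclooxygenase genes of prostaglandin synthesis, were knocked out. Both guides acted through an inducible Cas9. OT-1 T cells against ovalbumin were transferred on day 7, and live CD45+ cells were sorted from tumours isolated on day 10, 72 hours later. The labels give 1 tumour for each sample, whereas the figure legends of the study describe pools of several tumours, so how many went into each is unsettled, and the 3 samples differ in genotype as well as in everything else that separates single samples. The knockout sat in the cancer cells, which a CD45 sort removes, so Ptgs1 and Ptgs2 counts in the host macrophages do not check it. The therapy-naive sample NTT held 12 TAM_C1q and 20 TAM_Spp1 cells and was left out.

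Macrophages in tumours arise largely from blood monocytes that enter the tissue and mature there. One recurrent state carries C1q, the recognition part of the classical complement pathway that also tags dying cells for uptake, together with scavenger receptors, lipid carriers and lysosomal enzymes. Another carries osteopontin, the secreted matrix protein encoded by Spp1, with fibronectin and vessel growth factors, and is often found where tissue is short of oxygen. Prostaglandin E2 made by tumour cells is a known modulator of monocytes and macrophages.

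TAM_C1q held more cells than TAM_Spp1 in each sample, and its cells were deeper. Where 3 values are listed, they stand in the order RTT, RTT_ROSA26 and RTT_PTGS12KO. TAM_C1q numbered 3412, 2247 and 1556 cells and TAM_Spp1 2057, 1500 and 1267. Among cells of both names, TAM_C1q made up 62.4% in RTT (95% Clopper-Pearson interval 61.1 to 63.7), 59.97% in RTT_ROSA26 (58.4 to 61.5) and 55.1% in RTT_PTGS12KO (53.3 to 57.0). Over the 3 droplet loads the share ran from 61.6 to 63.4%, from 58.8 to 61.0% and from 53.6 to 56.8%, so RTT_PTGS12KO lay below both others in every load, with 1 sample behind each value. Both orders depend on which cells are counted, since without cells holding at least 3 S phase or mitosis genes, which were the deeper ones, the shares were 48.2, 36.3 and 38.1%. The median UMIs per cell were 13182.5, 13586 and 14062.5 in TAM_C1q and 10499, 7803 and 11681 in TAM_Spp1, and the sums held 23605280 to 49512753 UMIs in TAM_C1q and 13714676 to 23154372 in TAM_Spp1. Mitochondrial UMIs took 2.54 to 3.05% of the 6 sums and ribosomal protein UMIs 21.1 to 26.5%, with TAM_Spp1 above TAM_C1q in ribosomal share in each sample. Intervals cover counting error only.

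Both types held general macrophage markers, of which Fcgr1 also serves the study as a monocyte marker. The 5 general macrophage markers (Csf1r, Adgre1, Cd68, Fcgr1 and Mertk) summed to 1946, 1971 and 1760 CPM in TAM_C1q and to 1344, 1378 and 1348 CPM in TAM_Spp1. Markers of most other cells were low in both. Over the 6 sums, dendritic cell markers added up to 0.753 to 5.32 CPM, NK and T cell markers to 3.77 to 8.89, mast cell markers to 1.14 to 3.94, fibroblast markers to 6.28 to 10.6, endothelial markers to 7.94 to 21.2 and melanoma markers to 0.0635 to 0.424, with 3 of the 5 melanoma markers (Mlana, Sox10 and Tyr) at 0 UMIs in all 6 sums. Monocyte and neutrophil markers were the exceptions. Monocyte markers summed to 102, 165 and 316 CPM in TAM_C1q and 504, 923 and 799 CPM in TAM_Spp1, and neutrophil markers to 143, 139.9 and 168 CPM against 214, 244 and 167 CPM. The part of either list in the gaps between the types was not tested, and the counts without cells carrying monocyte markers stand beside the results.

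The types differed at few genes by a wide margin. Of the 6678 genes, 112 (1.68%) were at least 2-fold higher in TAM_C1q in all 3 samples and 77 (1.15%) at least 2-fold higher in TAM_Spp1 in all 3. The gap of a gene is the log2 ratio of CPM + 1, TAM_C1q over TAM_Spp1, within a sample, so a positive value means higher in TAM_C1q and a value of 1 is a doubling. Within a sample, 5.96, 6.15 and 3.41% of genes lay at least 2-fold apart between the types. Between samples within 1 type, the share at least 2-fold apart was 0.794 to 2.98% for TAM_C1q and 0.958 to 2.49% for TAM_Spp1. Gaps of the same gene lay close together across samples, with a median SD over the 3 of 0.11, and across genes they correlated at r = 0.92 between RTT and RTT_ROSA26 and at 0.88 and 0.89 for RTT_PTGS12KO against these. The genes are not independent, and all samples were sequenced in shared libraries and split by the same clusters.

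Gaps were narrower in RTT_PTGS12KO than in the other samples. Of the 189 genes in both counts, 149 had their narrowest gap in RTT_PTGS12KO, 18 in RTT and 22 in RTT_ROSA26. Without RTT_PTGS12KO, 190 genes were higher in TAM_C1q and 125 in TAM_Spp1 by the same rule. With CPM + 10 in place of CPM + 1 the counts were 53 and 41. The median gap of all genes was 0.12, and scaling by TMM factors (trimmed mean of M values) or by median-of-ratios size factors moved it by -0.11 and -0.13 and turned the split of 112 to 77 into 84 to 94 and 83 to 96.

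**Figure D1:**
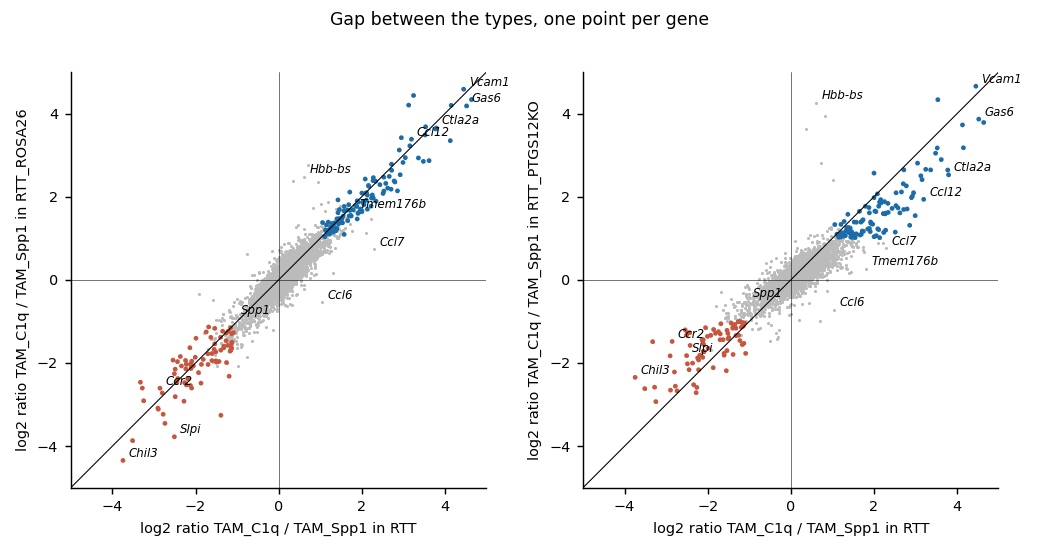
Gap of each of the 6678 genes, as log2 ratio of CPM + 1 (TAM_C1q over TAM_Spp1), in RTT on the horizontal axis against RTT_ROSA26 (left) and RTT_PTGS12KO (right), with the diagonal of equal gaps. Genes at least 2-fold higher in TAM_C1q (blue, 112) or TAM_Spp1 (red, 77) in all 3 samples follow the diagonal on the left and mostly lie between it and the horizontal line at 0 on the right.

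The genes behind the names differed less than many others. C1qa, C1qb and C1qc encode the 3 chains of C1q and lie side by side on chromosome 4 in GRCm38. C1qa was at 3262, 3188 and 2568 CPM in TAM_C1q and at 1252, 981 and 1349 CPM in TAM_Spp1, a mean gap of 1.34 ± 0.39 (SD, n = 3 samples). C1qb had a mean gap of 1.00 ± 0.32 and C1qc of 1.41 ± 0.41. NK cells, which should lack C1q, held 1252, 822 and 181 CPM of C1qa (13, 26 and 306 cells). In the sums the TAM_Spp1 level was that of NK cells in RTT and above it in the other samples. With each cell thinned to 4000 UMIs, C1qa had a UMI in 45.5, 47.8 and 18.9% of NK cells (11, 23 and 291 cells). In TAM_Spp1 cells these shares were 68.6, 51.6 and 77.3%. Spp1 itself, on chromosome 5 at 104435118 to 104441050, was at 4134, 5206 and 6884 CPM in TAM_C1q and at 8444, 9766 and 9759.6 CPM in TAM_Spp1. Its gaps were -1.03, -0.91 and -0.50, so the osteopontin transcript was under 2-fold apart in RTT_ROSA26 and RTT_PTGS12KO. Apoe, the apolipoprotein of lipid export, was at 30621, 22274 and 11391 CPM against 11064, 8452 and 6455 CPM.

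Promoter sequence is shown for 2 of the C1q chain genes, for Spp1 and for Chil3, the gene with the lowest mean gap of those named below, as context for the genes that mark each side. Each is 250 bases before to 50 bases after a RefSeq start on GRCm38.p6, written 5′ to 3′ on the strand of the gene. A second start of Spp1 has its own window, chr5:104435942-104436241, which held no match to the motifs marked here and is not shown. Capitals mark matches on either strand to TGCTGA (the core of a Maf recognition element), GAGGAAG (the purine-rich core bound by PU.1) and TATAAA (the TATA box), as letters only.
C1qb, chr4:136886151-136886450, minus strand: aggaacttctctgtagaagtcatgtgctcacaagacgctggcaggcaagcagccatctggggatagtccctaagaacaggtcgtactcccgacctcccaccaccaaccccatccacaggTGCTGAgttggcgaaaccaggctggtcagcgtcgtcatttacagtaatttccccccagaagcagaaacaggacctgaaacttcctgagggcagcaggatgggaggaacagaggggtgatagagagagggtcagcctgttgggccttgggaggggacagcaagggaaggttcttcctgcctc
C1qc, chr4:136892865-136893164, minus strand: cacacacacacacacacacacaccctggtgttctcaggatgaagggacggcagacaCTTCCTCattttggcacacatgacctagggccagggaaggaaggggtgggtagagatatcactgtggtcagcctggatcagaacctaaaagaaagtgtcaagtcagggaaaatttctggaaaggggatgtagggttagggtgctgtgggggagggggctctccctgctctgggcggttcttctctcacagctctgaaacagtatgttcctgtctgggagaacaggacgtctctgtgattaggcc
Spp1, chr5:104434861-104435160, plus strand: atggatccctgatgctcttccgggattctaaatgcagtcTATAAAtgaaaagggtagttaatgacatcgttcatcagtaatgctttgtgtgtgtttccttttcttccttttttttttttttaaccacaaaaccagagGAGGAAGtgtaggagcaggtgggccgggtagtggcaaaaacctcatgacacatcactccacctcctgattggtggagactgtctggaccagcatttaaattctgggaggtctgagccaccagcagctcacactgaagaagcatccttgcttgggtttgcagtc
Chil3, chr3:106167515-106167814, minus strand: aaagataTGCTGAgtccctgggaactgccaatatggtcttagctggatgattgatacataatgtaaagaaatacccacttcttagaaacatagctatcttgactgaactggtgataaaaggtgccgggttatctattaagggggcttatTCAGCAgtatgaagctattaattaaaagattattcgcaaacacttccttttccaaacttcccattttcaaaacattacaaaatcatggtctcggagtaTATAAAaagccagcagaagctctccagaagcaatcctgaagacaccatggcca
The C1qb window holds TGCTGA 131 bases before the start, the C1qc window GAGGAAG 194 bases before it on the opposite strand, and the Spp1 window TATAAA at 211 and GAGGAAG at 113 bases before it. The Chil3 window holds TGCTGA at 243 and, on the opposite strand, at 101 bases before the start, and TATAAA beginning 3 bases before it.

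Windows were found for 5381 of the 6678 genes, for 89 of the 112 and for 58 of the 77. TGCTGA stood in 27.0% of the genes higher in TAM_C1q and in 25.9% of those higher in TAM_Spp1, beside 17.2% of the genes at the minimum level and 19.5% of all 32851 windows. GAGGAAG stood in 25.8 and 25.9%, beside 17.3 and 13.6%. TATAAA stood in 14.6 and 24.1%, beside 8.92 and 13.6%. TGACTCA, the AP-1 site, stood in 11.2 and 8.62%, beside 4.65 and 5.20%. CCGGAAG, the ETS site of many constantly used promoters, stood in 6.74 and 3.45%, beside 23.7 and 8.86%. These 5 motifs were among 14 searched on both strands, some of which overlap (TGCTGA is part of TGCTGAC), and were chosen after their values were seen. A match is a run of letters, not a bound site.

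An adhesion gene, a bridging factor and a growth factor were among the widest gaps on the TAM_C1q side. Vcam1, an adhesion molecule that binds integrins of leukocytes, was at 189.6, 139 and 77.4 CPM in TAM_C1q and at 7.69, 4.81 and 2.096 CPM in TAM_Spp1, a mean gap of 4.57 ± 0.11. Gas6, the bridge between phosphatidylserine on dying cells and the receptor kinases Axl, Mertk and Tyro3, was at 136, 150.2 and 89.8 CPM against 4.97, 7.29 and 5.21 CPM, a mean gap of 4.19 ± 0.33. Igf1, insulin-like growth factor 1, was at 22.98, 29.5 and 13.3 CPM against 0.346, 0.656 and 0.572 CPM, where TAM_Spp1 rests on 8, 9 and 9 UMIs, a mean gap of 3.85 ± 0.58. All 3 genes were at several times the TAM_Spp1 level in each sample. After thinning to 4000 UMIs, Vcam1 had a UMI in 24.5, 21.8 and 12.7% of TAM_C1q cells and Igf1 in 7.37, 8.28 and 4.89%. Gas6 had one in 34.6, 38.3 and 25.2%, where NK cells had one in 9.09, 8.70 and 1.03%. Without thinning the shares of Gas6 were 63.5, 64.1 and 48.8% in TAM_C1q and 30.8, 15.4 and 3.92% in NK cells. In NK cells (11, 23 and 291 cells, with medians of 14838, 11528.5 and 15524 UMIs before thinning), which should lack Vcam1, its share was 18.2, 4.35 and 3.09%. The share of Igf1 in NK cells was 9.09% in RTT, which is 1 cell, and 0% in RTT_ROSA26 and RTT_PTGS12KO, where 0 of 23 and 0 of 291 cells allow up to 13.04 and 1.03% by the limit of 3 counts.

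Enzymes, secreted factors, protease inhibitors and receptors held most of the remaining places among the 15 highest mean gaps. Npl, which breaks down sialic acid, was at 214, 126 and 72.6 CPM in TAM_C1q and 7.601, 5.25 and 4.32 CPM in TAM_Spp1, and its mean gap of 4.26 ± 0.43 came next after that of Vcam1. Cbr2, a carbonyl reductase, was at 74.2, 95.6 and 68.8 CPM against 3.28, 8.46 and 4.26 CPM, and Cela1, an elastase, at 85.7, 83.1 and 52.8 CPM against 6.52, 6.49 and 4.95 CPM. Gdf15, a stress-induced factor of the TGF-beta family, had a mean gap of 2.83 ± 0.67 and Serpinb6a, a serine protease inhibitor, of 3.13 ± 0.43. A higher level in TAM_C1q in every sample was a condition of the rule that named these genes. The rest of the 15 (Ch25h, Ctla2a, Folr2, Fcrls, Ccl8, Ccl12, Gpr34 and Hpgds) are described with their groups.

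Endocytic and scavenger receptors leaned to TAM_C1q. Of 10 such genes at the minimum level, 4 were at least 2-fold higher in TAM_C1q in all 3 samples and 1 in TAM_Spp1, with a median gap of 0.56. Folr2, a folate receptor of tissue macrophages, was at 236, 226 and 193 CPM against 20.2, 30.5 and 22.4 CPM. Siglec1, a sialic acid-binding lectin, had a mean gap of 2.26 ± 0.24, Stab1, a receptor for modified lipoproteins, of 1.95 ± 0.34, and Mrc1, the mannose receptor, of 1.75 ± 0.06. The member on the other side was Olr1, the receptor for oxidised low-density lipoprotein, at 2.91, 2.49 and 3.39 CPM in TAM_C1q and 17.97, 25.4 and 27.8 CPM in TAM_Spp1. Fcrls, an Fc receptor-like scavenger protein also used to mark microglia, was at 878, 1084 and 807 CPM against 84.3, 141 and 128 CPM. Fcgrt, the neonatal Fc receptor that recycles antibody, was the 1 of 6 Fc receptor genes past 2-fold in all 3 samples, with a mean gap of 2.48 ± 0.27.

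Lysosomal genes were shifted to TAM_C1q together but by little. Of 40 genes, 35 had a positive gap in all 3 samples and 1 a negative gap in all 3, where over all 6678 genes 3567 were positive and 1348 negative in all 3. Their median gap was 0.52 and 3 passed 2-fold in every sample. These were Cd63, a tetraspanin of late endosomes, at 1765, 1561 and 1029.98 CPM against 433, 427 and 326 CPM, and the proteases Ctsb, with a mean gap of 1.67 ± 0.32, and Ctsd, with 1.32 ± 0.24. Lipid handling genes had a median gap of 0.35 over 20, with 2 past 2-fold in TAM_C1q, the glycoprotein Gpnmb at 2.99, 2.83 and 1.55 and the fatty acid carrier Fabp5 at 2.17, 2.25 and 1.85. Abca1, the cholesterol exporter, was nearly even across samples at gaps of 0.73, 0.70 and 0.73. Iron and haem genes (10) had a median of 0.41 and 0 past 2-fold, and genes for the clearance of dying cells (8) a median of 0.49 with Gas6 as the 1 past it.

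Complement genes were mixed. Of 13 genes, 0 passed 2-fold in all 3 samples, and 7 were positive and 3 negative in all 3. Among all 6678 genes, 3567 were positive and 1348 negative in all 3. The median gap of the list was 0.34, which was 0.79 with a minimum of 50 CPM and 0.21 under median-of-ratios factors. C1qa reached 2-fold in RTT and RTT_ROSA26 but stood at 0.93 in RTT_PTGS12KO. C4b, the fourth component, had gaps of 0.96, 2.35 and 1.24, C3, the central component, -0.54, -0.63 and -0.63, and Cfp, properdin of the alternative pathway, -0.25, -0.28 and -0.32. C5ar1, the receptor for the C5a fragment, was at 0.00, -0.05 and 0.20.

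Some genes typical of monocytes were among those with the lowest mean gaps. Chil3, a chitinase-like protein of classical monocytes and alternatively activated macrophages, was at 21.4, 14.05 and 20.7 CPM in TAM_C1q and at 299, 305 and 109 CPM in TAM_Spp1, a mean gap of -3.48 ± 1.03. Ccr2, the receptor that draws monocytes out of the marrow, was at 52.7, 100.2 and 184 CPM against 388, 616 and 515 CPM, a mean gap of -2.32 ± 0.73. Vcan, the matrix proteoglycan versican, was at 7.25, 7.44 and 5.93 CPM against 93.4, 122 and 41.5 CPM. All 3 of the monocyte markers at the minimum level (Ccr2, Ly6c2 and Plac8) were at least 2-fold higher in TAM_Spp1 in each sample, with a median gap of -1.55. In the cells named Monocyte_1 (384, 54 and 3347 cells), Chil3 was at 489, 861 and 229 CPM, Vcan at 42.7, 107 and 87.7 and Ccr2 at 297, 628 and 449.7 CPM. TAM_Spp1 lay below Monocyte_1 in Chil3 in each sample and above it in Vcan in RTT and RTT_ROSA26. In Ccr2 it lay above Monocyte_1 in RTT and RTT_PTGS12KO and near it in RTT_ROSA26. The Vcan level of Monocyte_1 in RTT_ROSA26 rests on 44 UMIs. Chil3 sat in few cells, as the 5% of TAM_Spp1 cells with the most Chil3 held 54.9, 58.5 and 79.3% of its UMIs. With cells that had at least 2 of the 5 monocyte markers removed (27.0, 37.1 and 48.4% of TAM_Spp1 and 9.50, 15.04 and 27.4% of TAM_C1q), a choice made after seeing the data, the counts were 107 and 69, with 159 of the 189 genes among them.

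Other genes among the 15 lowest mean gaps encode proteins of several kinds. Cd24a, a surface sialoglycoprotein, was at 8.200, 7.85 and 6.74 CPM in TAM_C1q and 86.5, 65.5 and 57.99 CPM in TAM_Spp1. F10, coagulation factor X, was at 17.5, 10.1 and 17.03 CPM against 137, 95.1 and 113 CPM, and Mcemp1, a membrane protein of mast cells and monocytes, at 21.7, 10.4 and 9.91 CPM against 154, 106 and 63.3 CPM. The rule that named these genes required the same direction in every sample. Napsa, an aspartic protease, had a mean gap of -2.36 ± 0.17, Hopx, a homeodomain protein, of -2.58 ± 0.32, and Ltb4r1, a receptor for the attractant leukotriene B4, of -2.13 ± 0.47.

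A few inflammatory and calcium-binding genes were also higher in TAM_Spp1, while most members of their lists did not pass 2-fold. Of 13 cytokine genes, Il1b, the interleukin 1 beta gene, and Il1r2, its decoy receptor, passed 2-fold in every sample, and the list had a median gap of -0.28, which was -0.80 with a minimum of 50 CPM. Il1b was at 1042, 693 and 714 CPM in TAM_C1q and 3172, 2370.2 and 2512 CPM in TAM_Spp1, and Il1r2 at 43.4, 34.8 and 17.6 CPM against 430.2, 217 and 111 CPM. Of 18 S100, annexin and galectin genes, S100a4, S100a6 and S100a11 passed it, with mean gaps of -2.03 ± 0.62, -1.97 ± 0.62 and -1.87 ± 0.35, while the median of the list was -0.18, with 5 genes positive and 10 negative in all 3. Of 9 CXC chemokine genes, the neutrophil attractants Cxcl2 and Cxcl3 passed it, at -1.48 ± 0.28 and -2.44 ± 0.40. In this list 2 genes were positive and 4 negative in all 3, where among all 6678 genes 3567 were positive and 1348 negative. Ifitm1, an interferon-induced membrane protein, was at 1075, 543 and 130.2 CPM against 5444, 2285 and 754 CPM, so both types stood lower in RTT_PTGS12KO.

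Antigen presentation by MHC class II had the widest median gap of the lists at the 10 CPM minimum, though with no minimum level its median was -1.13, closer to 0 than those of the C1q markers (1.58) and the monocyte markers (-1.42). All 7 of its genes at the minimum level were lower in TAM_C1q in all 3 samples, as were 1348 of all 6678 genes. At least 2-fold lower were 4 of them (H2-Aa, H2-Ab1, H2-Eb1 and Cd74), and the median was -1.93 (-2.09, -1.94 and -1.72). H2-Eb1, a beta chain of class II, was at 200.05, 208 and 551 CPM in TAM_C1q and 937, 855 and 2098 CPM in TAM_Spp1. H2-Aa was at 213, 235 and 606 CPM against 1012, 905 and 2229 CPM, and Cd74, the invariant chain, at 85.9, 78.4 and 215 CPM against 373, 332 and 711 CPM. The levels were highest in RTT_PTGS12KO in both types, and the median gap of the group was the smallest there. Class II UMIs were spread unevenly over cells. The 5% of cells with the most H2-Aa held 75.04, 74.8 and 41.3% of its UMIs in TAM_C1q and 43.3, 55.1 and 22.9% in TAM_Spp1. After thinning, the median cell of either type in RTT and RTT_ROSA26 had 0 H2-Aa UMIs, and the median TAM_Spp1 cell of RTT_PTGS12KO had 4, where Monocyte_1 cells had medians of 19, 11 and 20. H2-Aa had a UMI in 41.2, 32.8 and 72.3% of TAM_Spp1 and 21.3, 20.3 and 43.8% of TAM_C1q cells, and in 36.4, 34.8 and 23.7% of the NK cells (11, 23 and 291). The TAM_C1q shares of RTT and RTT_ROSA26 and the TAM_Spp1 share of RTT_ROSA26 did not exceed those of NK cells. In these samples NK cells number 11 and 23, of which 45.5 and 47.8% held a C1qa UMI, and give no clean background. Without monocyte-marker cells, a removal chosen after seeing the data, the median gap was -2.15. Dendritic cell markers stayed under 6 CPM in every sum, and the part of other cells in this gap was not tested.

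**Figure D2:**
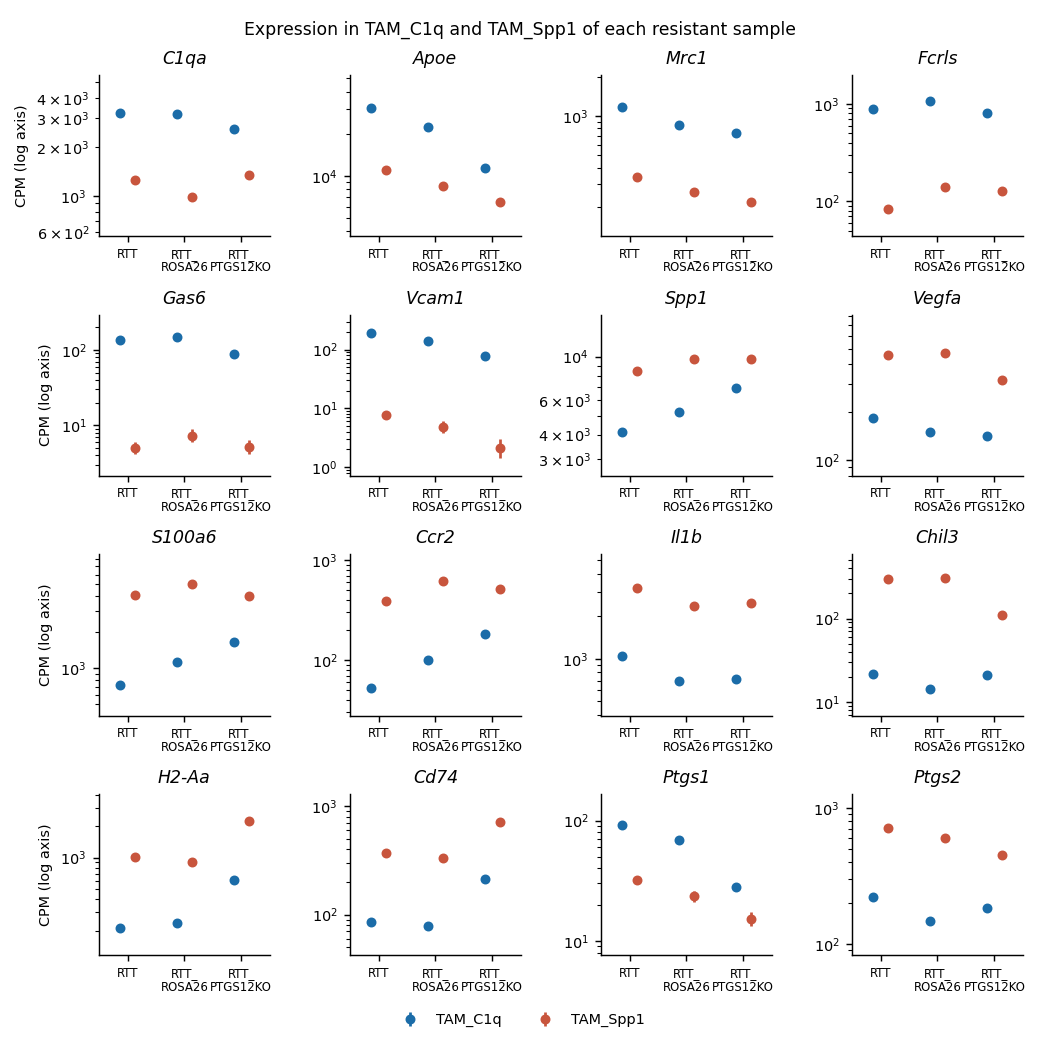
Levels of 16 genes in CPM (log axes that differ between panels) in TAM_C1q (blue) and TAM_Spp1 (red) of each sample, with 1 point per sum and bars for the exact 95% Poisson interval, mostly smaller than the point. The order of the types is the same in every sample for each gene, Vcam1 and Gas6 stand widest apart, and the points of Spp1 draw together in RTT_PTGS12KO, at 6884 and 9759.6 CPM.

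Prostanoid genes were split between the types. Ptgs2, the inducible cyclooxygenase, was at 221, 147 and 184 CPM in TAM_C1q and 719, 607 and 454 CPM in TAM_Spp1, a mean gap of -1.68 ± 0.37. Ptgs1, the constitutive one, was at 91.4, 68.8 and 27.8 CPM against 32.1, 23.5 and 15.2 CPM, a mean gap of 1.27 ± 0.39 that stood at 0.83 in RTT_PTGS12KO. Hpgds, which turns prostaglandin H2 into D2, was at 161, 171 and 100.99 CPM against 23.6, 26.6 and 15.2 CPM with a mean gap of 2.67 ± 0.04, among the most even between samples. Among the receptors for prostaglandin E2, Ptger4 had gaps of 0.67, 0.38 and 0.08 and Ptger2 of -0.28, -0.74 and -0.22. Over the 13 genes of the list, 1 passed 2-fold on each side and the median was 0.40, which was 0.01 with no minimum level and -0.05 with a minimum of 50 CPM.

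Growth factors and matrix genes also went both ways. Of 15 growth and vessel factor genes, Igf1, Nrp1 (a co-receptor for vascular endothelial growth factor) and Vegfb were higher in TAM_C1q, and Areg (amphiregulin), Inhba (an activin subunit) and Vegfa were higher in TAM_Spp1, each by at least 2-fold in all 3 samples. Vegfa was at 184, 151 and 141 CPM in TAM_C1q and 459.7, 469 and 317 CPM in TAM_Spp1, and Vegfb at 21.9, 24.3 and 18.9 CPM against 4.71, 7.07 and 8.702 CPM. Of 20 matrix genes, Vcan and Mmp8, a collagenase, were higher in TAM_Spp1 and Timp2, an inhibitor of such enzymes, in TAM_C1q, with a median of -0.65, which was -0.18 with no minimum level. Fn1, fibronectin, had gaps of -0.87, -0.94 and -0.33, and Thbs1, thrombospondin 1, of -0.97, -2.06 and -0.90. Of 18 glycolysis genes, 14 were lower in TAM_C1q in all 3 samples and 0 passed 2-fold, with a median of -0.40 in RTT, -0.34 in RTT_ROSA26 and -0.08 in RTT_PTGS12KO. Of 17 hypoxia response genes, Vegfa alone passed it, and 10 were lower in TAM_C1q in all 3. Both counts stand beside 1348 lower and 3567 higher in all 3 among all 6678 genes.

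The monocyte attractants Ccl8 and Ccl12 were higher in TAM_C1q. Ccl8 was at 240.1, 221 and 488 CPM in TAM_C1q and 19.7, 16.3 and 23.2 CPM in TAM_Spp1, and Ccl12 at 612, 1139 and 1689 CPM against 65.7, 108 and 439.6 CPM. Both passed 2-fold in all 3 samples, as 2 of 10 CC chemokine genes. Ccl24, an eosinophil attractant, was on the other side with a mean gap of -2.15 ± 0.98. Ccl2 and Ccl7 passed it in RTT, at gaps of 1.32, 0.18 and 0.28 and 2.29, 0.74 and 0.76, but not in the other samples. Cx3cr1, the fractalkine receptor kept by many tissue macrophages, was higher in TAM_C1q (1.62 ± 0.56), while Ccr2 and Fpr2, a receptor for formylated peptides, were higher in TAM_Spp1.

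Among 42 transcription factor genes, Bhlhe41 was higher in TAM_C1q at 31.7, 44.9 and 37.4 CPM against 1.38, 2.698 and 5.14 CPM, and the nuclear receptors Nr4a2 and Nr4a3 were higher in TAM_Spp1 with mean gaps of -1.7 ± 0.44 and -1.22 ± 0.25. Maf, a factor of mature macrophages, had gaps of 1.39, 1.05 and 0.90. Klf4, a factor of monocytes, had gaps of -1.25, -1.40 and -0.53.

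Several groups were near even. The 30 interferon-stimulated genes had a median gap of 0.08 (-0.04 under TMM and -0.05 under median-of-ratios factors) with 0 past 2-fold. Of these, 10 were positive and 9 negative in all 3 samples, beside 3567 and 1348 of all 6678 genes. The 13 MHC class I genes had a median of 0.06, which was -0.06 under TMM factors and -0.07 under median-of-ratios factors. The 54 nuclear respiratory chain genes had a median of 0.11, close to that of all genes, which turned to -0.00724 under TMM factors and -0.0181 under median-of-ratios factors, and the 13 mitochondrial genes of 0.05. Among 13 checkpoint and costimulatory ligand genes, only Cd80 passed 2-fold, higher in TAM_Spp1 with a mean gap of -1.62 ± 0.28, while Cd274, which encodes PD-L1, was at -1.07, -0.92 and -0.39. The list of alternative activation was divided, with Mrc1 and Folr2 higher in TAM_C1q and Chil3, Ccl24 and Mgl2 higher in TAM_Spp1.

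Ribosomal protein genes were lower in TAM_C1q together but by little, as 63 of 83 were lower in all 3 samples and their median gap was -0.15. Immediate-early and heat-shock genes lay toward TAM_Spp1 by less than 2-fold. Of 21 genes, 13 were lower in TAM_C1q in all 3 samples, 0 were higher in all 3 and 0 passed 2-fold, where over all 6678 genes 1348 were lower and 3567 higher in all 3, with a median gap of -0.31 (-0.46, -0.53 and -0.16).

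Genes of S phase and mitosis at the minimum level leaned to TAM_C1q, although cycling macrophages carry a name of their own. Of 12 such genes, 3 passed 2-fold in every sample (Stmn1, Birc5 and Ccnb2), 11 were positive in all 3, and the median gap was 0.57. Among all 6678 genes, 3567 were positive in all 3 and the median gap was 0.12. The median of the list was also 0.12 over its members with at least 50 CPM. Mki67 was at 11.6, 9.36 and 10.5 CPM in TAM_C1q and 4.97, 2.698 and 5.02 CPM in TAM_Spp1, beside 187, 145 and 166 CPM in the cells named TAM_cycling. TAM_C1q cells were the deeper ones, and the part of depth in this gap was not tested. Without cells holding at least 3 of the list's 27 genes the median was 0.09, a step that also removed 42.3 to 80.0% of cells.

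Of the marker lists, 5 of 10 C1q markers (Fcrls, Selenop, Ms4a7, Stab1 and Mrc1) and 1 of 10 Spp1 markers (Vegfa) passed 2-fold in all 3 samples, with median gaps of 1.58 and -1.04, and these lists are in part the study's own choice on these samples. Of the remaining lists, ER stress genes (12) had a median gap of 0.31, Ms4a genes (7) 0.41, with Ms4a7 past 2-fold in TAM_C1q and Ms4a8a in TAM_Spp1, pattern recognition genes (19) -0.08 (-0.64 with a minimum of 50 CPM), arginine, polyamine and itaconate enzymes (12) -0.11 (0.0887 with that minimum), with Nos2, the inducible nitric oxide synthase, past 2-fold in TAM_Spp1 at -1.41 ± 0.28, adhesion genes (21) -0.01, with Vcam1, Cd63 and Itga9 past it in TAM_C1q and Itgb7 in TAM_Spp1, and neutrophil markers (3) -0.16. The macrophage markers (5) had a median of 0.50 and 0 past 2-fold.

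**Figure D3:**
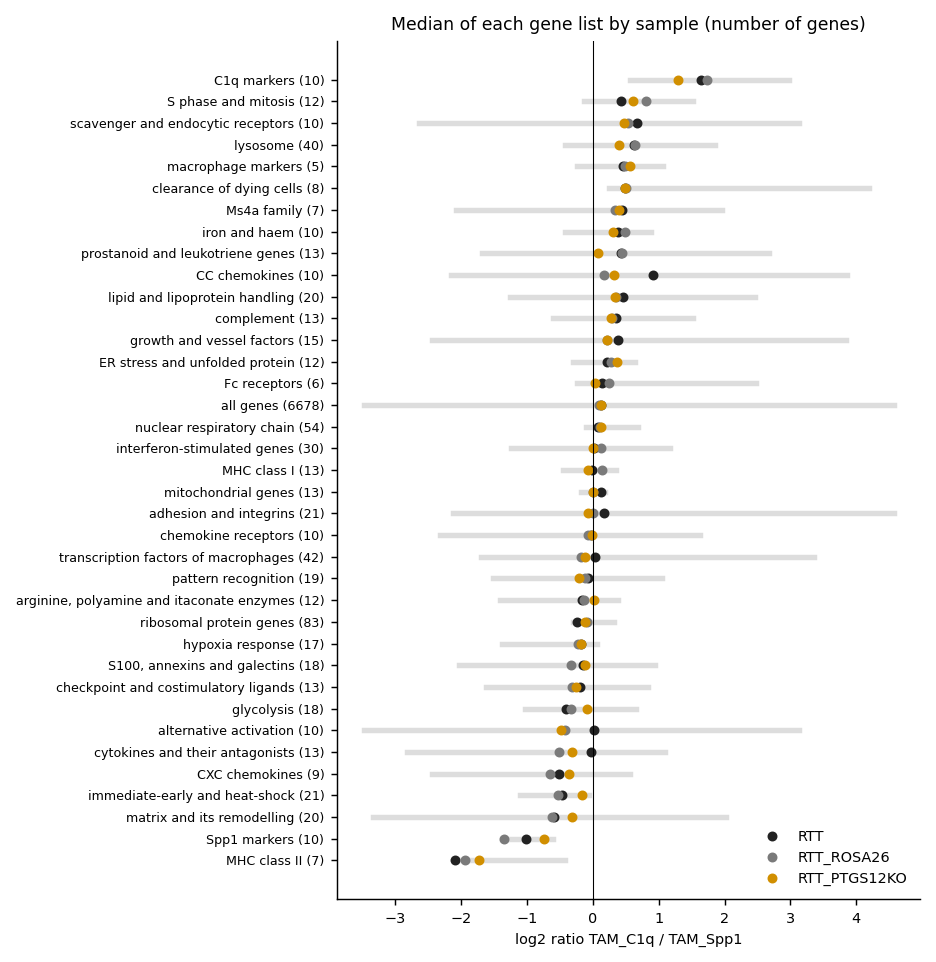
Median gap (log2 ratio, TAM_C1q over TAM_Spp1) of each list with at least 5 genes at the minimum level, with 1 point per sample, grey bars from the lowest to the highest mean gap of a member and the number of genes in brackets. MHC class II lies farthest below 0 (-2.09 to -1.72) and the C1q markers farthest above it (1.29 to 1.74), while the grey bars show that most lists hold members on both sides.

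Cell by cell, most TAM_C1q cells held more C1q than Spp1 marker UMIs, while TAM_Spp1 cells were divided. Each cell was thinned to 4000 UMIs, and the UMIs of the 10 C1q markers were taken as a share of those of the 10 C1q and 10 Spp1 markers together, lists that are in part the study's own and were chosen on these samples. The median share was 88.1, 85.0 and 69.7% in TAM_C1q and 52.5, 37.0 and 43.6% in TAM_Spp1. The quartiles of TAM_C1q were 80.7 and 93.5% in RTT, 75.1 and 91.9% in RTT_ROSA26 and 59.2 and 80.3% in RTT_PTGS12KO, near the upper limit of the share in the first 2. Those of TAM_Spp1 were 30.0 and 70.0% in RTT, 18.1 and 57.3% in RTT_ROSA26 and 26.8 and 58.2% in RTT_PTGS12KO. More C1q than Spp1 marker UMIs were found in 99.3, 97.6 and 87.1% of TAM_C1q cells and in 52.8, 32.7 and 39.0% of TAM_Spp1 cells. The same held for 92.5, 95.0 and 76.7% of TAM_cycling cells. Monocyte_1 cells had a median share of 65.9, 38.7 and 52.9%, above that of TAM_Spp1 in each sample. Cells with a share between 40 and 60% made up 2.35, 6.29 and 22.4% of TAM_C1q and 23.8, 24.6 and 32.1% of TAM_Spp1. A large part of the share rests on 2 genes. Apoe gave a mean of 128, 94.3 and 47.6 of the 216, 172 and 106 C1q marker UMIs of a thinned TAM_C1q cell, and Spp1 34.8, 40.4 and 37.9 of the 75.2, 87.6 and 73.8 Spp1 marker UMIs of a TAM_Spp1 cell. The share is a range and not a boundary between types, and RTT_PTGS12KO had the highest percentage of cells near its middle in both types.

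The median thinned cell had 13, 13 and 10 C1qa UMIs in TAM_C1q and 3, 1 and 5 in TAM_Spp1, where the median NK cell had 0 in each sample. It had 8, 11 and 18 Spp1 UMIs in TAM_C1q and 21, 26 and 23 in TAM_Spp1. NK cells had medians of 2, 3 and 3 (11, 23 and 291 cells), below either macrophage type in every sample, but NK cells may express Spp1 themselves and so give no clean background for it. Its share of cells with a UMI, 89.8 to 96.2% in TAM_C1q and 89.9 to 93.4% in TAM_Spp1 against 72.2 to 81.8% in NK cells, did not separate the types.

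**Figure D4:**
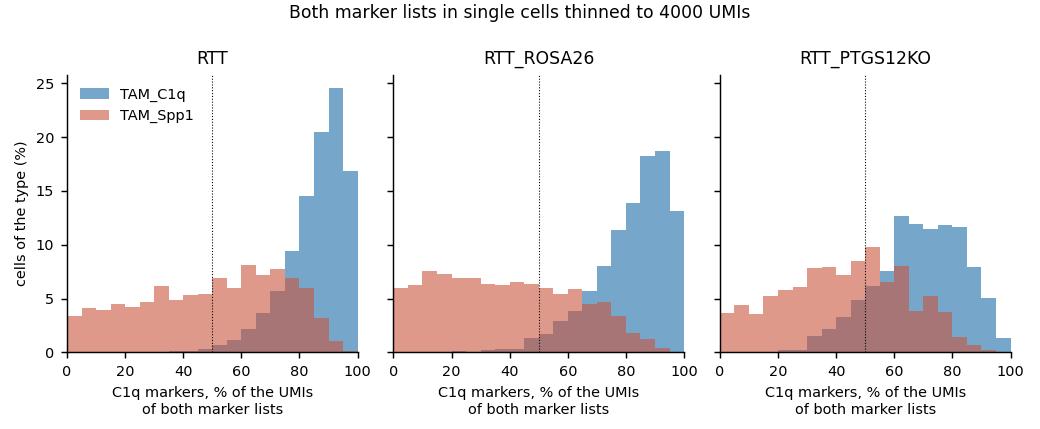
Distribution over cells of the share of C1q markers among C1q and Spp1 marker UMIs, in percent, for each type and sample after thinning to 4000 UMIs per cell. TAM_C1q cells crowd at the upper end in RTT and RTT_ROSA26 (medians 88.1 and 85.0%) and lie lower in RTT_PTGS12KO (69.7%), while TAM_Spp1 cells spread over most of the axis in every sample.

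The gap of most genes was alike in the 3 samples. Genes whose gap in 1 sample lay at least 1 log2 unit outside both other gaps numbered 18 (0.27% of the 6678) for RTT_PTGS12KO, 9 (0.135%) for RTT_ROSA26 and 6 (0.0898%) for RTT. There is 1 sample of each kind, so a difference between RTT_PTGS12KO and the others cannot be told apart from a difference between single samples. The 18 were 8 with CPM + 10 and 31 with the mean over cells of each cell's CPM. The 6 of RTT were Ccl2, Ccl6 and Ccl7, with the higher gap there, and 3 haemoglobin genes, with the lower. The 9 of RTT_ROSA26 were C4b, Ch25h, Mmp12 and Pmp22, with the higher gap, and Ccl24, Plac8, Saa3, Slpi and Thbs1, with the lower. Of the 18 of RTT_PTGS12KO, 9 had the higher and 9 the lower gap there, and 3 were haemoglobin genes. Hbb-bs had 99.7 to 100% of its UMIs in 5% of the cells of each type, so its gaps of 0.61, 2.49 and 4.26 rest on few cells.

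Chil3, Ccr2 and Hp had narrower gaps in RTT_PTGS12KO. Chil3 had gaps of -3.75, -4.35 and -2.35, Ccr2 of -2.86, -2.61 and -1.48, and Hp, haptoglobin, of -2.91, -3.09 and -1.83. For Ccr2 the level in TAM_C1q was highest in RTT_PTGS12KO, and for Chil3 the level in TAM_Spp1 was lowest there. These genes were named for that difference, and the monocyte markers as a list had median gaps of -1.25, -2.32 and -1.14, so RTT lay near RTT_PTGS12KO. Over the 3 loads the gap of Ccr2 ran from -1.53 to -1.44 in RTT_PTGS12KO, from -2.97 to -2.66 in RTT and from -2.72 to -2.43 in RTT_ROSA26. The loads are splits of the same pool, so these ranges cover no spread between samples. S100a4 (-2.51, -2.26 and -1.33), Rgcc (-2.05, -2.07 and -1.15) and Vcan (-3.52, -3.87 and -2.62) lay on the same side by less. Hspa1b, a heat-shock protein gene that shares reads with its near copy Hspa1a, had gaps of -0.61, -0.78 and 0.40.

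Genes of the TAM_C1q side, named by the same rule, also had smaller gaps there. Tmem176b, a channel gene of myeloid cells, was at 27.6, 83.1 and 33.6 CPM in TAM_C1q and 7.17, 25.7 and 27.6 CPM in TAM_Spp1, so TAM_Spp1 of RTT_PTGS12KO stood near TAM_C1q. Tmem176a, its neighbour, had gaps of 1.40, 1.42 and 0.18. Ccl12 had gaps of 3.20, 3.39 and 1.94 and was highest in both types in RTT_PTGS12KO, and Ctla2a, a protease inhibitor gene with the near copy Ctla2b, had 3.80, 3.66 and 2.53. Rapsn (2.72, 2.79 and 1.7), Blnk (2.52, 2.08 and 1.15) and Gpr34 (2.91, 3.13 and 1.98) were likewise lowest in RTT_PTGS12KO. Ccnd2, a cyclin of G1 phase, differed in that it was lower in TAM_C1q throughout and most so in RTT_PTGS12KO, at -0.32, -0.52 and -1.39.

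The samples that keep both cyclooxygenase genes were also compared, over genes with at least 50 CPM in the highest sum. The 8 whose gaps differed most were Hbb-bs and 7 genes of chemokines, a protease, a protease inhibitor and an enzyme. Ccl6, a chemokine, was higher in TAM_C1q in RTT only, at 1288, 600.1 and 783 CPM against 627, 875 and 1295 CPM. Ccl7 had gaps of 2.29, 0.74 and 0.76, Ccl2 of 1.32, 0.18 and 0.28 and Mmp12, an elastase of macrophages, of -1.92, -0.35 and -1.68. Slpi, a protease inhibitor, had gaps of -2.51, -3.78 and -1.82 and Ch25h, the 25-hydroxylase of cholesterol, of 3.25, 4.44 and 2.66. Cxcl9, an attractant of T cells, had gaps of -0.76, 0.62 and 0.02 at 14.2 to 86.9 CPM.

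**Figure D5:**
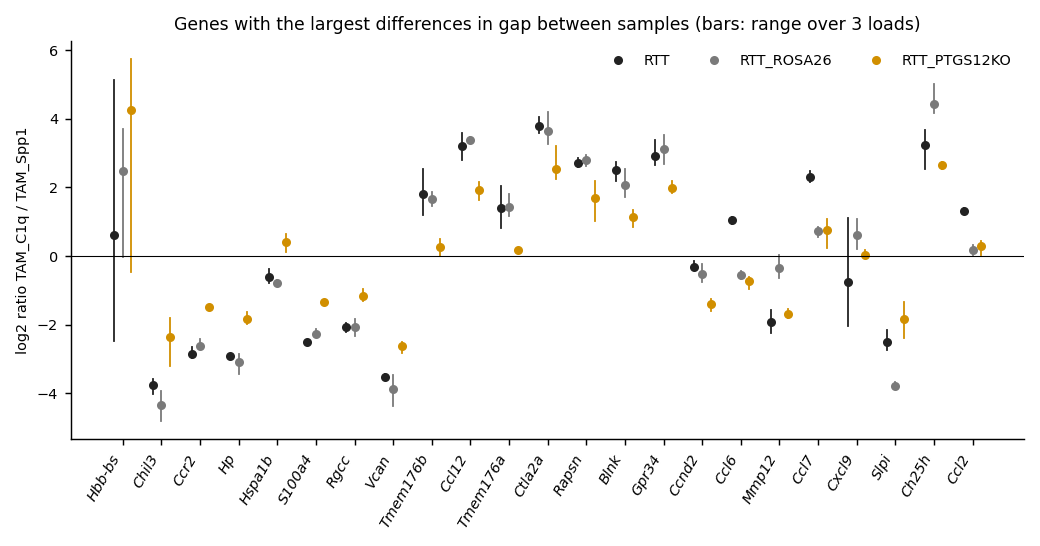
Gap (log2 ratio, TAM_C1q over TAM_Spp1) of the genes named for their dependence on the sample, with 1 point per sample and bars for the range over the 3 droplet loads. The bars of Hbb-bs span most of the axis, the points of Ccr2 and Chil3 lie nearer 0 in RTT_PTGS12KO, and those of Ccl6 lie above 0 in RTT and below 0 in both others.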

How the data were processed

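UMI counts per gene and cell were deposited by the authors as 1 matrix, and a table names the sample and type of every cell. The labels and the methods of the study state that the 4 samples were tagged with multiplexing oligos, pooled, loaded 3 times on a 3' droplet assay, counted with Cell Ranger on mm10, filtered on genes, mitochondrial and ribosomal share, and clustered in Seurat 4.3.0 after Harmony integration with other experiments, with ribosomal and mitochondrial genes left out. Cells with the oligos of 2 samples drop out at demultiplexing, and no doublet caller was run here. Of the barcodes, 98 occurred in more than 1 load (75 of their cells were of both types in the 3 samples) and 0 carried 2 samples in 1 load. The load was read from the ending of each cell's name, which no label states, so every value per load rests on that reading.

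UMIs were summed per sample and type and divided by the total to give CPM. The gap is the log2 ratio of CPM + 1 within a sample, given as mean ± SD over 3 samples, and a gene was counted when at least 2-fold apart in the same direction in all 3 among genes with a mean of at least 10 CPM. Exact Poisson intervals (95%) cover counting error only. No test was made. The members and the 42 gene lists were chosen with earlier results of these data known. The genes named were members of the lists, the 15 highest and 15 lowest mean gaps where the higher type reached 50 CPM and the sign was the same in all samples, the 8 largest differences of RTT_PTGS12KO from the nearer other sample in each direction, and the 8 largest between RTT_ROSA26 and RTT, both with a limit of 50 CPM on the highest sum. Ribosomal protein, mitochondrial and unnamed transcript genes were left out of the last 3. The gap and the counting rules were also checked on simulated counts. For single cells, each cell was thinned once to 4000 UMIs and shallower cells were left out (9 to 89 per type and sample).

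Promoter windows came from RefSeq on GRCm38.p6 and gene positions from GENCODE on GRCm38, the assembly of mm10. Of the 651 symbols in the lists, 3 had no row in the matrix, and some members are not reported here by name. Python 3.11.15, numpy 2.4.6, pandas 2.3.3, scipy 1.17.1 and matplotlib 3.10.9 were used, and TMM factors from edgeR 4.0.16 and size factors from DESeq2 1.42.0 in R 4.3.3 served as alternatives. Others were the pseudocount, the minimum level, the fold, totals without ribosomal protein and mitochondrial genes, single loads, means over cells, the removal of deep, cycling or monocyte-marker cells and each sample left out.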

Additional observations from a re-analysis of the deposited data

Results flagged for a closer look

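Genes whose gap had opposite signs in different samples were singled out where both gaps were at least 0.5 from 0. The difference itself was not tested, since each condition has 1 sample, and groups of 3 were not examined for outlying samples. Ccl6 had a gap of 1.04 in RTT against -0.54 in RTT_ROSA26, and of 1.04 in RTT against -0.72 in RTT_PTGS12KO. Its loads ran from 0.93 to 1.13 in RTT, from -0.66 to -0.45 in RTT_ROSA26 and from -0.97 to -0.60 in RTT_PTGS12KO, so every load kept the sign of its sample. Cxcl9 had a gap of -0.76 in RTT against 0.62 in RTT_ROSA26, at 17.4 and 30.2 CPM in TAM_C1q and TAM_Spp1 of RTT. Its loads in RTT ran from -2.05 to 1.12, so the sign changed between loads of the same sample.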

How the results depend on the processing

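Over all alternatives and lists, 541 list medians kept their direction and moved by less than the spread between samples, 20 kept it and moved by more, and 31 changed sign, 17 of them within that spread. Of the values of named genes, 917 kept their direction within that spread, 58 kept it and moved by more, and 5, all of Ccl6 and Cxcl9, changed sign within it. The cause of a change was not tested unless stated. TMM factors gave -0.00724 for the nuclear respiratory chain, -0.0575 for MHC class I and 0.195 for ER stress genes. Median-of-ratios factors gave -0.0181, -0.0683 and 0.184 for the same lists, 0.21 for complement and 0.0219 for Fc receptors. With no minimum level the medians were 0.28 for endothelial markers, -0.18 for matrix, -0.16 for growth and vessel factors, 0.0137 for prostanoid genes, -1.13 for MHC class II and 0.21 for ER stress genes, and with at least 50 CPM they were 0.79 for complement, 0.87 for growth and vessel factors, 0.0887 for arginine enzymes, -0.0500 for prostanoid genes, -0.80 for cytokines, -0.64 for pattern recognition, 0.40 for alternative activation, 0.12 for S phase and mitosis and 0.39 for ER stress genes, over other members in each case. Without cells of at least 3 S phase or mitosis genes, which were the deeper ones, they were -2.51 for monocyte markers, 0.0526 for endothelial markers, 0.0871 for S phase and mitosis and 0.22 for ER stress genes. Without cells of at least 2 monocyte markers they were 0.94 for monocyte markers, by construction, 0.24 for adhesion genes and -2.15 for MHC class II. Without the 5% of cells with the most MHC class II its median was -2.48, where cells were removed on the genes measured. Neither removal was planned. Load 3 alone gave 0.29 for neutrophil markers and 0.38 for ER stress genes. Leaving out 1 sample at a time gave -0.0301 to 0.125 for MHC class I, negative without RTT_ROSA26.

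The counts of 112 and 77 became 53 and 41 with CPM + 10, 199 and 121 with no minimum level, 42 and 33 with at least 50 CPM, 341 and 169 at 1.5-fold and 24 and 14 at 4-fold. Leaving out 1 sample at a time gave 120 to 190 and 80 to 125, the highest without RTT_PTGS12KO. Of the 189 genes, 161 were shared with the 178 under TMM factors, and 148 to 174 with single loads. The 18 genes of RTT_PTGS12KO became 8 with CPM + 10, 31 with means over cells, 53 without cells of at least 3 S phase or mitosis genes, 28 without monocyte-marker cells, 30 in load 3, 47 with no minimum level and 7 with at least 50 CPM. The TAM_C1q share became 81.9, 72.3 and 65.4% when cells were placed by the larger marker sum and 48.2, 36.3 and 38.1% without cells of at least 3 S phase or mitosis genes. The gaps pair the types within a sample. An edgeR fit with the sample as a block, used for its fold changes only, kept the direction of all 70 genes it was read for and moved 4 by more than the spread between samples, Vcam1 to 4.69, Hpgds to 2.61, Cd24a to -3.32 and Mrc1 to 1.64. Depth limits genes below 10 CPM, and 1 sample per condition limits every statement on a condition.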
